A study of Mus musculus with 2 samples.

Results

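Cytoplasmic ribosomal protein genes were examined in the cortex of adult mice: all genes whose symbol begins with Rpl or Rps and a digit, together with Rplp0, Rplp1 and Rplp2. S6 kinase genes, Rps19bp1, antisense symbols and symbols ending in -ps (annotated pseudogenes) were set aside. The rule found 90 of 43346 gene rows. Of these, 76 were called core genes, 46 for the large (60S) and 30 for the small (40S) subunit, and the other 14 were relatives or copies of a core gene. Of the 14, 8 are protein-coding and 6 are pseudogenes in release 21 of the GENCODE mouse annotation. One further symbol of the rule, Rpl32l, had no row.

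The series holds 2 libraries, biological replicates 1 and 2 of 1 group, made from polyadenylated RNA over 200 nt of C57BL/6J mice aged 8 weeks. The labels call the tissue cortical plate and describe pooled male and female littermates with added spike-in RNAs; no treatment, allele or transgene is named. The animals behind each library are not listed, and both libraries carry the same donor label, so p-values measure the difference between these 2 libraries, which may be technical. No second condition exists, and the only contrast is replicate 2 against replicate 1.

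Ribosomal proteins wrap and stabilise the ribosomal RNA of both subunits, and most are present as a single copy in each ribosome. The genes are expressed in nearly every cell, and their mRNAs begin with a cytosine and a run of pyrimidines, the 5′ terminal oligopyrimidine (TOP) element through which mTOR signalling controls their translation. Mammalian ribosomal protein genes have left many processed pseudogenes, intronless copies of the mRNA, in the genome. In neurons, ribosomes lie in the cell body, in dendrites and in axons.

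Promoter windows of 6 members are shown: 5 with a pyrimidine run at or near the start, the feature counted first for the whole group, and Rpl41 as a highly expressed member without one in its window. Each runs from 40 bases before to 20 after the annotated RefSeq start (GRCm38.p6), 5′ to 3′ on the gene's strand, and capitals mark the nearest pyrimidine run that begins with C. The windows are Rps21 at chr2:180257339-180257398 (plus strand), Rpl38 at chr11:114668540-114668599 (plus), Rps24 at chr14:24490638-24490697 (plus), Rps6 at chr4:86857348-86857407 (minus), Rpl13a at chr7:45128726-45128785 (minus) and Rpl41 at chr10:128549149-128549208 (minus).
Rps21: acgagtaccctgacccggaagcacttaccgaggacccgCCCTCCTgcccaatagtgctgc
Rpl38: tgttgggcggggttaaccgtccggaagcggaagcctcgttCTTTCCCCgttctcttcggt
Rps24: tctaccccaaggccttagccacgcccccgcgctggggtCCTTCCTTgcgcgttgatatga
Rps6: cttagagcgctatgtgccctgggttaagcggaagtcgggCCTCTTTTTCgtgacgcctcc
Rpl13a: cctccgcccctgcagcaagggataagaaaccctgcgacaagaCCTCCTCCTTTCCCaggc
Rpl41: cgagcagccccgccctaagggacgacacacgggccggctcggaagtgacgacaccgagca
The run begins at the annotated start in Rpl38 and within 2 bases of it in Rps21, Rps24, Rps6 and Rpl13a, while the Rpl41 window holds none. The GENCODE spans of Rpl41 and Rps24 begin upstream of these windows, at chr10:128549305 and chr14:24487125. Other starts were not examined, so the Rpl41 window does not show that its mRNA lacks a run. The letters ccggaag stand upstream of the start in Rps21 and Rpl38.

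Across the group, 56 core members had a promoter entry in the RefSeq table. A C followed by 4 pyrimidines began within 20 bases of the start in 43 of them (76.79%), against 49.46% of 10105 coding genes with at least 1 TPM (transcript abundance per length, scaled to a fixed total) in both libraries and 49.59% of all 27025 promoters. With the run required within 2 bases, a window chosen after seeing the data, the shares were 33.93%, 9.965% and 8.962%. CCGGAAG, a site of ETS factors, was found on either strand of the 300-base promoters (250 before and 50 after the start) of 22 of the 56 (39.29%), against 17.58% of those coding genes and 9.121% of all promoters. AAGATGGC, the core of the YY1 site, was found on either strand in 7.143%, against 4.651% and 2.879%. TATAAA between 40 and 20 bases before the start was found in 0 of 56, against 1.098% and 2.22%. CTTCCGG, the reverse complement of CCGGAAG, contains CTTCC, so a match on that strand near the start also counts as a pyrimidine run. The shares of these motifs are therefore not separate. Matches were only counted, and no test was made.

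The core genes were short and compact. Their median span was 3266 bp with 5 exons and 154 codons, against 25400 bp, 9 exons and 469 codons for 12856 coding genes with at least 1 TPM, those of 12873 such genes that have an annotated coding transcript in release 21. Small nucleolar RNA genes, whose products guide modification of ribosomal RNA, lay on the same strand within the span of 29 of 76 core genes (38.16%), against 1.75% of those coding genes. Rpl4 held 5 of the 55 snoRNA genes, and Rpl13a held 4. Core genes lay on 19 chromosomes.

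All 76 core genes reached at least 1 TPM in both libraries, and their levels were among the highest of the tissue. Their median was 355.0 TPM in replicate 1 and 318.7 TPM in replicate 2, and the median of the mean level was 335.7 TPM, against 14.49 TPM for 12873 coding genes with at least 1 TPM. The lowest core gene stood at percentile 81.08 of those genes, and 38 of the 200 most abundant nuclear coding genes were core members. All members together held 3.611% and 3.246% of gene TPM, and 1.205% and 1.163% of gene counts, in replicates 1 and 2. Of nuclear coding TPM alone the shares were 6.386% and 6.333%.

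Levels differed widely between subunit members even on a per-length scale. Rplp1, an acidic protein of the ribosomal stalk that recruits elongation factors, was highest at 2189 and 1982 TPM (2085 ± 147, SD, n = 2). Rps21, a small-subunit protein, followed at 1380 and 1217 TPM (1299 ± 115). Rpl41, which encodes a very short basic peptide, had 1249 and 1112 TPM (1180 ± 96.8). Both libraries of Rplp1 lay above both libraries of every other member.

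The next were Rps15, which is needed for export of the small subunit, at 1227 and 1118 TPM, and Rpl26, which sits near the exit tunnel, at 1054 and 909 TPM. Rpl38, mutated in the tail-short mouse, had 982 and 904 TPM. Rpl13a, known in human myeloid cells for a role in translational silencing, had 944 and 782 TPM. Rps24, one of the genes mutated in human Diamond-Blackfan anaemia, had 938 and 787 TPM. Rps29 was at 814 and 865 TPM and Rps12 at 859 and 818 TPM. From Rpl26 to Rps12 the libraries of neighbouring genes overlapped.

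The lowest core gene was Rpl5, which with Rpl11 and 5S rRNA binds the p53 regulator Mdm2, at 51.0 and 40.9 TPM (46.0 ± 7.17). Its partner Rpl11 had 285 and 252 TPM. Rpl27 stood just above Rpl5 at 81.8 and 73.6 TPM, and Rpl22, whose tagged form is used to pull down ribosomes from chosen brain cells, at 118 and 99.3 TPM. The core range was 45.37-fold, but 58 of 76 core genes lay within 2-fold of the core median, and the 90th percentile was 5.08-fold above the 10th.

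**Figure D1:**
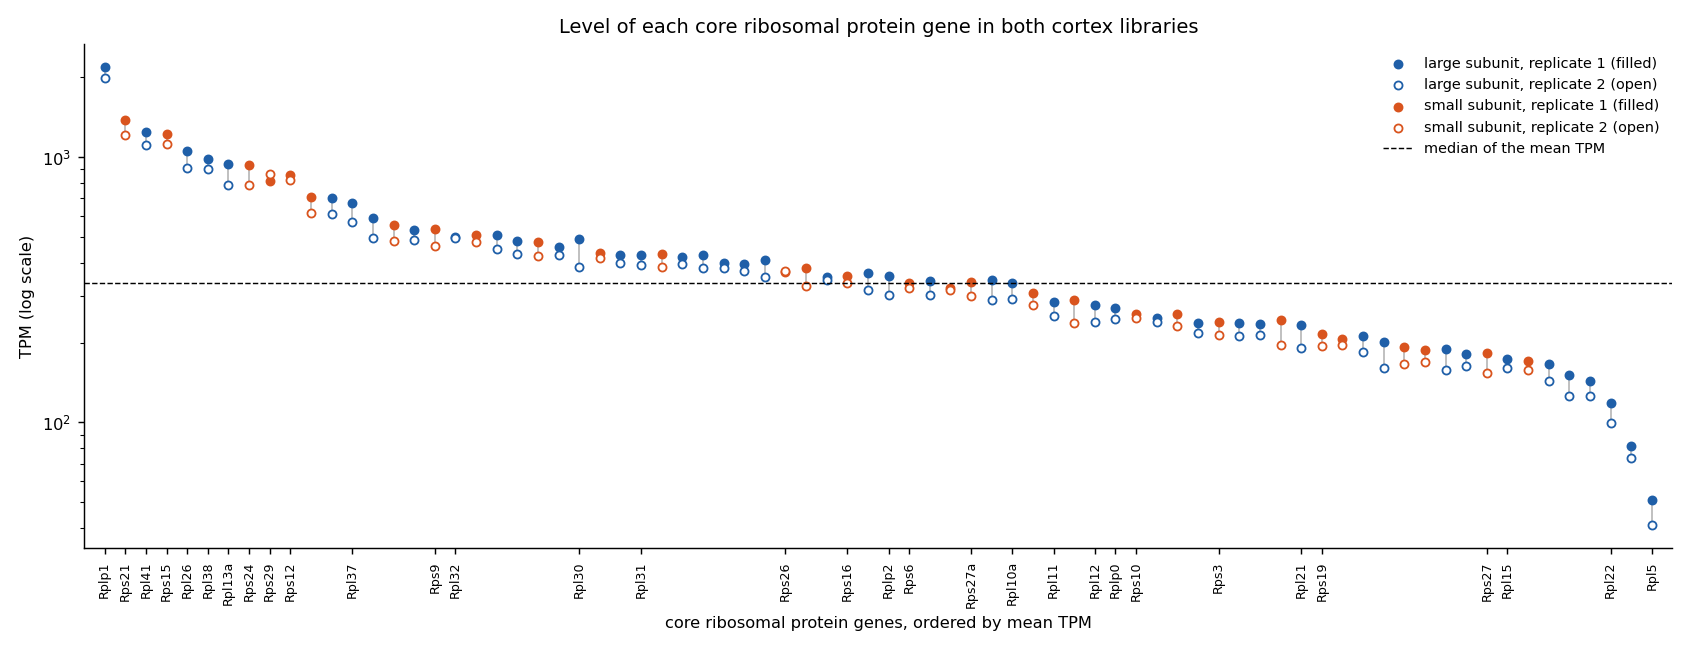
TPM on a log axis for each of the 76 core genes in order of mean TPM, with only genes described in the text labelled, replicate 1 filled, replicate 2 open and the median of 335.7 TPM dashed. Rplp1 stands above all others and Rpl5 below all others in both libraries, and large- and small-subunit genes are mixed along the order.

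The subunits did not separate by level. The median of the mean level was 335.7 TPM over the large-subunit genes and 336.9 TPM over the small-subunit genes, a ratio of 0.9963 that was 1.028 in replicate 1 alone and 0.9579 in replicate 2 alone. Per library the large-subunit medians were 355.9 and 309.9 TPM and the small-subunit medians 346.3 and 323.6 TPM, so the ranges of the subunits overlapped. The stalk proteins did not stand together. Rplp0, the stalk base, had 270 and 244 TPM and Rplp2 had 357 and 302 TPM, both far below Rplp1.

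Other members with known roles stood lower in the order. Rps6, the substrate of S6 kinases, had 336 and 321 TPM. Rpl10a, tagged in translating ribosome affinity purification lines, had 336 and 292 TPM. Rps27a, made as a fusion with ubiquitin, had 337 and 299 TPM. Rps19, the gene most often mutated in human Diamond-Blackfan anaemia, had 215 and 194 TPM. The first 3 overlapped one another, and both Rps19 values lay below all of theirs.

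The order was nearly the same in both libraries and changed with the measure of level. Between libraries 63 of 76 core genes moved by at most 3 ranks and none by more than 8, with a Spearman correlation across genes of 0.993; genes are not independent replicates. Of the 89 neighbouring pairs in the full order of 90 members, 77 overlapped between libraries. Counts scaled to depth but not divided by length correlated with TPM at 0.612 across the core genes, and by that measure Rplp1, Rpl3, Rpl37, Rps2 and Rpl4 led. TPM divides by effective length, the number of positions at which a fragment could start, and this was under 200 nt in 6 core genes. For Rps27 it was 55.2 nt in replicate 1 and 48.4 nt in replicate 2, so that 683 and 552 counts gave 183 and 154 TPM. Effective length and TPM correlated at -0.525, a description of values that share that divisor.

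Relatives of core genes were mostly low. Rpl3l, a muscle form of Rpl3, had 0.31 and 0.24 TPM, against 410 and 353 TPM for Rpl3. Rpl39l, known from testis, had 1 and 4 counts, against 5015 and 4865 for Rpl39. Rpl10l, also known from testis, had 0 counts in both libraries, and a count of 0 allows up to 3 counts. Rps12l1 had 0 and 3.17 counts. The copies Rpl6l, at 3.10 and 2.82 TPM, and Rps3a3, at 0.79 and 0.62 TPM, were low as well, and Rps3a2 had 17.2 and 11.97 TPM.

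Rpl36al, an autosomal relative of the X-linked Rpl36a, had 184 and 160 TPM against 345 and 290 TPM, or 35.22% ± 0.59 of the pair's sum (SD, n = 2). Rpl22l1 had 85.1 and 80.8 TPM and held 43.35% ± 2.1 of its pair with Rpl22. Rpl7l1, an Rpl7 relative, had 16.6 and 14.7 TPM, or 6.012% ± 0.35 of its pair. Rps27l, a p53 target in human cells, had 23.7 and 26.7 TPM. Rps4l, a relative of the X-linked Rps4x, had 35.0 and 25.9 TPM and held 9.377% ± 1.2 of that pair.

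On TPM the core gene was above its relative in 9 of 9 pairs with a ratio, in both libraries, but the size of the ratio depended on the measure. Rpl22 over Rpl22l1 was 0.39 ± 0.13 on the log2 TPM scale, 1.45 on counts and 4.71 on mm9 RPKM (read density per length and depth, from the authors' table on the older mm9 assembly). Rpl36a over Rpl36al was 0.88 ± 0.04 on TPM and -3.1 on mm9 RPKM. Rps27 over its retrocopy Rps27rt was 0.95 ± 0.52 on TPM, -0.73 on counts and -5.87 on mm9 RPKM. The retrocopy ratios are uncertain because the copies share most of their read-length windows with other genes; Rpl22 shared none, and the cause of its spread was not tested.

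**Figure D2:**
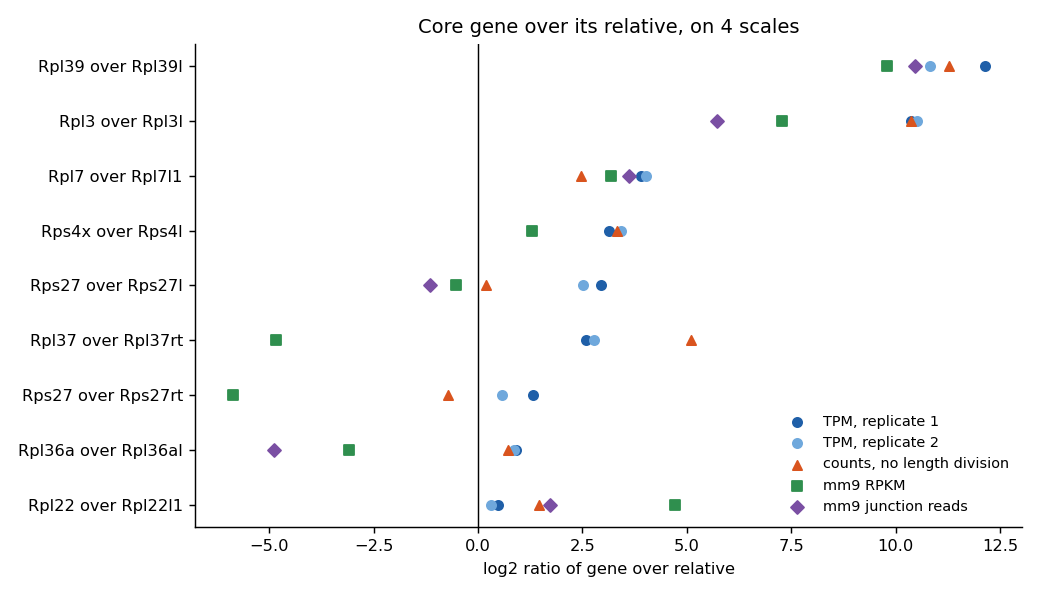
Log2 ratio of a core gene over its relative for the 9 pairs with a ratio, by TPM in each replicate, by counts without length division, by mm9 RPKM and by mm9 junction reads where present. Rpl39 and Rpl3 lie far above 0 on each scale, and Rpl37 over Rpl37rt, Rps27 over Rps27rt and over Rps27l, and Rpl36a over Rpl36al lie below 0 on mm9 RPKM.

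Many members share sequence with other annotated genes. Among windows of the core transcripts as long as a read, a median of 41.07% also occurred in another annotated gene; 30 core genes shared over 50% of their windows, and 67 shared at least 1 with a pseudogene. Rps21, Rpl30, Rps3 and Rpl22 were among the 7 that shared none. Rps27 shared 98.37% and its retrocopy Rps27rt 89.42%.

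Pseudogene rows held a small part of the mm10 counts. The 248 rows with a member symbol and -ps held 37451 and 32066 counts, or 3.399% and 3.016% of the counts on members and these rows together, and 130 of them had 0 counts. Single rows were nonetheless high. Rpl31-ps8 had 339 and 288 TPM beside 429 and 393 TPM for Rpl31. Rpl27-ps3 had 259 and 248 TPM, above Rpl27 itself at 81.8 and 73.6 TPM in both libraries. How reads were divided between these rows and their parent genes is not known from the table.

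The mm9 table gave a different picture of the same family. Over coding genes with at least 1 mean TPM on mm10 and at least 1 mean RPKM on mm9, the median log2 ratio of RPKM to TPM was -2.89 (8859 genes, SD 0.554). Differences below are relative to that median. Members were not held to that floor, which leaves out coding genes that are low on mm9. The core median was -2.65, and 64 of the 74 core genes with a value lay below -1 while 0 lay above 1. Rps12 was lowest at -7.71, with 0.540 RPKM against 838 TPM. Rpl38 (-6.65), Rps29 (-5.59), Rps16 (-4.96) and Rpl37 (-4.77) followed.

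Copies lay on the other side. Rps12l1 was at 10.96, with 29.7 RPKM against 0.11 TPM, Rps3a3 at 6.91, Rpl6l at 4.74, Rps3a2 at 3.83 and Rpl37rt at 2.74. Of 13 relatives and copies with an mm9 value, 6 were above 1. Of the summed level on core, relative and -ps rows, core rows held 94.06% in mm10 TPM and 37.67% in mm9 RPKM, and -ps rows held 4.378% and 52.4%. Only 186 of the 248 -ps rows had an mm9 value, and RPKM and TPM sums are on different scales, so only the shares are set side by side.

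The median mm9 difference was -3.14 over the core genes with more than 50% of windows shared and -1.09 over the 7 with none. Of those 7, Rps3 (0.07) and Rpl22 (-0.10) lay near 0, while Rps21 lay at -3.83 and Rpl30 at -3.11. The Spearman correlation of shared windows with the mm9 difference was -0.376 across 74 core genes, a description only. The treatment of reads that map to several places is not stated for the mm9 table, and its part was not tested.

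**Figure D3:**
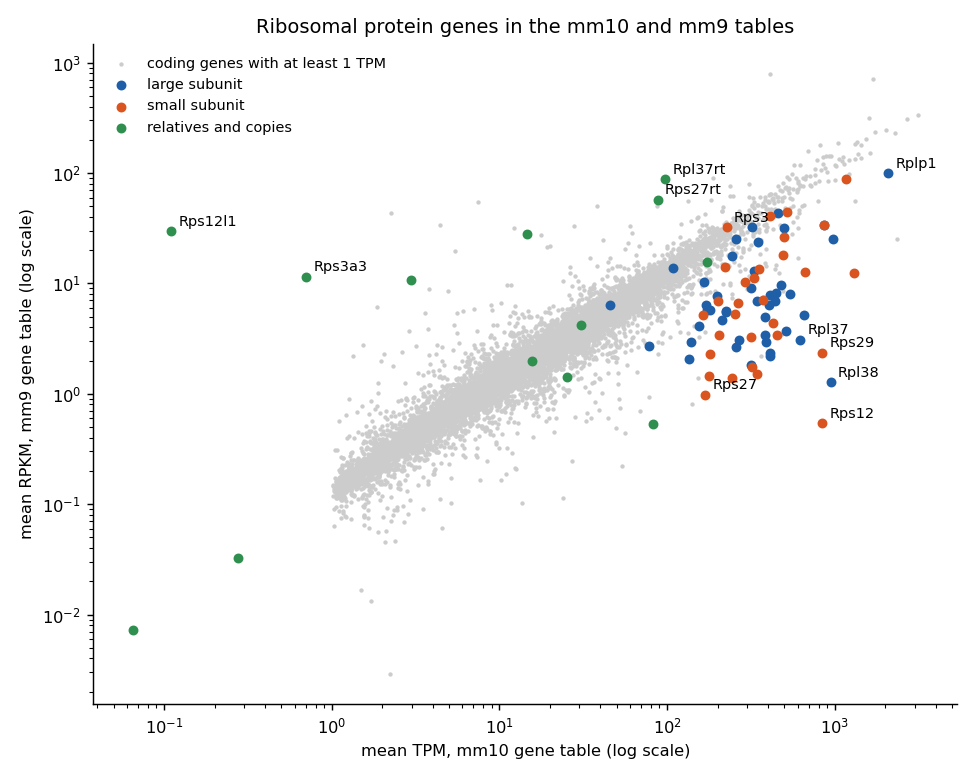
Mean mm9 RPKM against mean mm10 TPM on log axes for coding genes with at least 1 TPM (grey), large- and small-subunit genes and relatives or copies. Most core genes lie below the grey band, with Rps12 farthest, and the copies Rps12l1, Rps3a3, Rpl37rt and Rps27rt lie above it.

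Junction reads, which require a spliced transcript and come from the mm9 files, were found for 74 core genes. Junctions were searched only within genes that have an mm9 gene entry. No value was obtained for Rpl24 or for Rpl41, which has no mm9 RPKM and was therefore not searched. The median was 439.5 reads per junction over both libraries for the large-subunit genes and 774.7 for the small-subunit genes. Junction reads ranged over 432.1-fold and correlated with mm9 RPKM at 0.722 and with mm10 TPM at 0.336 across core genes. All these values use only junctions with at least 10% of the reads of the gene's strongest junction. In Rplp1, whose leading transcript has 3 exons, 1 junction was kept, with 40877 reads.

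Most members were led by 1 transcript. Among 84 members with at least 10 TPM in both libraries, the leading transcript held at least 90% of gene TPM in 56, and 23 had 1 transcript only. It held under 60% on average in 13. The leading transcript is protein-coding in 76 of the 84, and its share moved between libraries by a median of 0.23 percentage points.

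Several of the 13 were led by a transcript that is not annotated as coding. In Rpl12 a transcript annotated for nonsense-mediated decay held 57.4% and 53.6%. In Rpl30 a transcript of type processed transcript (388 nt) held 55.9% and 51.4%, and the most abundant of its coding transcripts 25.6% and 26.5%; the types without coding annotation held 56.9% and 52.2% together. In Rps9 a retained-intron transcript of 378 nt held 50.2% and 47.5% and the most abundant coding one 46.0% and 49.1%, so that the leader changed between libraries. Rpl5 was led by a coding transcript, with 48.8% and 47.9%, but its retained-intron transcripts together held 50.2% and 51.8%. Rps20, which is not among the 13, was led by a retained-intron transcript, with 73.2% and 75.8%.

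The other low leading shares were mostly between coding transcripts. In Rpl41 the shares of the first coding transcript were 53.3% and 38.8% and of the second 31.5% and 46.2%, a change of leader and, at 14.55 percentage points, the largest difference of the 84. Rplp2 had 52.4% and 61.7% on its leading transcript, and Rps6 61.9% and 57.1%, with a processed transcript second at 34.2% and 39.2%. Rpl15 (37.8% and 34.9%), Rpl21 (53.4% and 54.2%), Rpl31 (54.1% and 51.5%), Rps10 (52.7% and 51.9%) and Rps3 (58.5% and 60.5%) were split between coding transcripts. The leading Rpl13a transcript, with 42.6% and 44.6%, has no entry in release 21. Shares of short, overlapping transcripts are estimates that share reads.

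**Figure D4:**
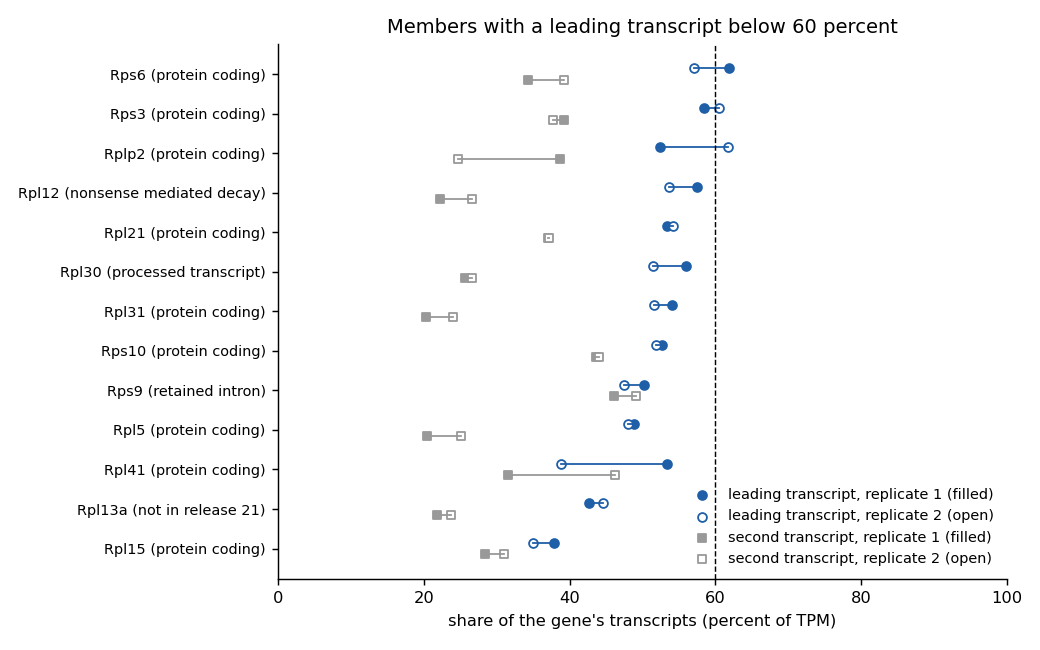
Share of gene TPM held by the leading transcript (blue circles) and the second transcript (grey squares) in replicate 1 (filled) and replicate 2 (open) for the 13 members whose leading share was below 60% on average (dashed line); the annotated type of the leader is in brackets. Leader and second change places in Rpl41 and Rps9.

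Between the libraries, members were close to equal. After scaling by effective library size (TMM), the log2 ratio, replicate 2 over replicate 1, had a median of -0.017 over the 87 members with at least 10 counts, against 0.003 over all genes tested, -0.021 over large-subunit genes and -0.009 over small-subunit genes. Of 76 core genes, 75 lay within 1.2-fold (98.68%), against 74.55% of all genes and 95.15% of genes at least as deep as the shallowest core gene. The median absolute log2 ratio was 0.054 over core genes and 0.066 over those deep genes. The depth bar is a minimum, so the deep genes are not matched to core genes in level. Their median was 20.04 and 17.94 TPM, against 355.0 and 318.7 TPM for core genes. Rps12l1, Rpl39l and Rpl10l had too few counts to test. On TPM, 74 of 76 core genes were lower in replicate 2, but the median shift of all genes on TPM was -0.156 and that of the core -0.162.

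With the exact binomial test, which covers counting error only, 21 members were higher and 27 lower in replicate 2 and 39 did not pass, which is 55.17% called, against 28.7% called over all 19829 genes (14.8% higher and 13.9% lower). Core members gave 19 higher and 24 lower of 76, with 11 and 15 among 46 large-subunit genes and 8 and 9 among 30 small-subunit genes. The called share was higher among deeper genes. Of the 11051 genes at least as deep as the shallowest core gene, 39.2% were called, 19.2% higher and 20% lower. That background was chosen after seeing the data and is not matched to core genes in level. With edgeR's negative binomial exact test at the common dispersion, 0 members were called, against 1.31% of all genes (0.908% higher and 0.403% lower). In that test 1 of 87 members had an unadjusted p under 0.05, against 6.309% of all genes. In the binomial test 57 members had one. The dispersion was estimated from these same 2 libraries taken as 1 group. The difference under test thus sets the noise, so the 0 is no separate evidence of equality.

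The largest ratios were found in small or copied genes. Rps27rt had 839 and 1234 counts, 1.5-fold higher in replicate 2 (95% interval 1.373 to 1.64, binomial test, adjusted p = 2.276e-18). Rps27, its near-identical parent, had 683 and 552 counts, a ratio of 0.825 (0.7355 to 0.9236). The sum of both was 1522 and 1786 counts, a ratio of 1.197 (1.117 to 1.282). Rps27l followed, with 490 and 598 counts and a ratio of 1.245 (1.103 to 1.406).

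Among core genes, Rps29 had 10431 and 11673 counts, a ratio of 1.141 (1.112 to 1.172), Rps26 a ratio of 1.091 and Rpl32 a ratio of 1.089. In the other direction, Rps3a2 had 687 and 519 counts, a ratio of 0.771 (0.6862 to 0.8649), and Rps4l had 1758 and 1413 counts, a ratio of 0.820. Rpl37rt had 931 and 784 counts, a ratio of 0.859 (0.7801 to 0.9456), and Rpl5 had 4348 and 3763 counts, a ratio of 0.883 (0.8448 to 0.9223). Each ratio is of 1 library to 1 library.

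**Figure D5:**
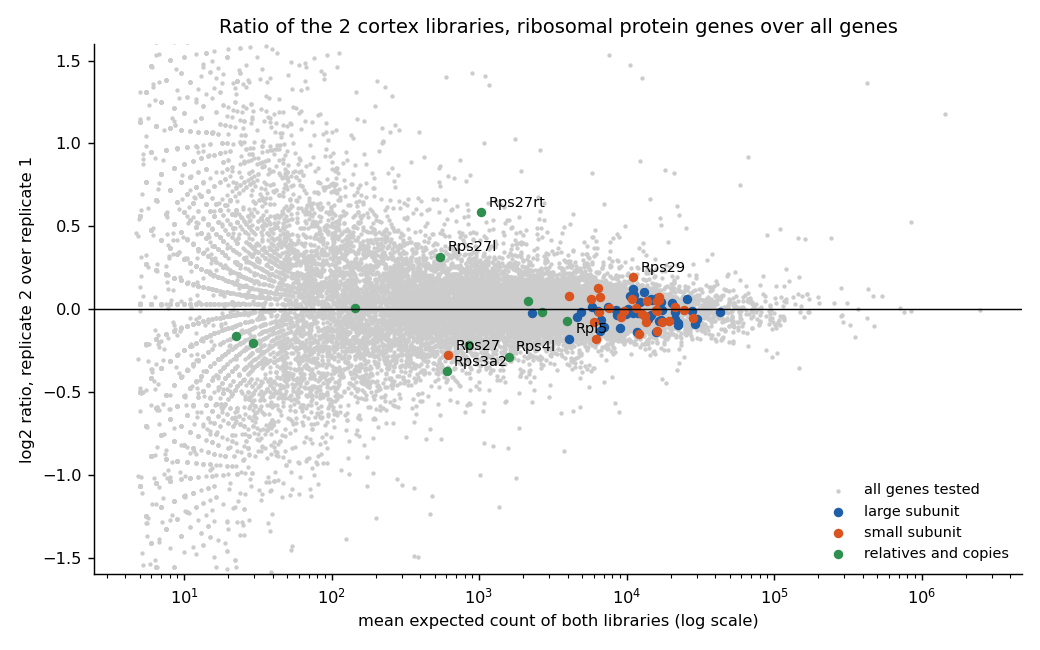
Log2 ratio of replicate 2 over replicate 1 against the mean expected count (log axis) for all genes tested (grey), subunit genes and relatives or copies; genes outside the vertical axis are not drawn. Core genes cluster around 0 and Rps27rt is the member farthest above it.

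Markers of other brain regions differed between the same libraries. All 5 markers of striatal neurons passed the binomial test as higher in replicate 2, with a summed level of 49.2 and 190 TPM, and all 4 hippocampal markers were lower, at 18.3 and 6.55 TPM. All 4 oligodendrocyte markers were higher, at 3220 and 3946 TPM. Markers of excitatory neurons were detected in both, at 2935 and 2527 TPM, with 3 of 3 lower, and 3 of 3 inhibitory markers were higher. Their median log2 ratios by scaled counts were -0.077 and 0.163, and every gene of both lists lay within 1.2-fold. For comparison, the binomial test called 28.7% of all genes and 39.2% of the deep genes. On TPM, all genes shifted by a median log2 ratio of -0.156. The part of these marker differences in the ratios of ribosomal protein genes was not tested. In bulk tissue, fewer cells of a type and less RNA per cell cannot be told apart.

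Genes that act with the ribosomal proteins showed small differences in both directions. Among subunit genes with other symbols, Fau (508 and 457 TPM), Rpsa (324 and 295 TPM) and Rack1 (254 and 221 TPM) did not pass the binomial test. Of 16 other TOP mRNAs, 1 was higher and 4 lower, with a median log2 ratio of -0.042. That is 31.25% called, against 28.7% of all genes and 39.2% of the deep genes defined above. Eef1a1, the elongation factor that brings tRNA, had 1819 and 1646 TPM, Eef2, the translocation factor, 571 and 496 TPM, and Tpt1 461 and 419 TPM. All genes shifted on TPM by a median log2 ratio of -0.156. By scaled counts Eef1a1 (ratio 0.989) and Eef2 (0.969) passed as lower in replicate 2, and Tpt1 (1.048) passed as higher. Of 32 biogenesis genes, 3 were higher and 7 lower (31.25% called, against the same 28.7% and 39.2%) with a median of 0.006. The most abundant were Nap1l1, a histone chaperone, at 97.6 and 86.8 TPM, Nop56, a box C/D snoRNP protein, at 79.2 and 72.5 TPM, and Bccip at 59.6 and 56.8 TPM, of which Nop56 passed with a ratio of 0.959. Of 11 genes that control TOP translation, 3 were higher and 2 lower (45.45% called, against 28.7% of all genes and 39.2% of the deep genes). Of those, Rheb, the GTPase that activates mTOR complex 1, had 56.5 and 50.7 TPM, Akt1s1, an inhibitor of that complex, 56.8 and 48.7 TPM, and the S6 kinase gene Rps6kb2 42.1 and 33.9 TPM, with a ratio of 0.890 that passed.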

How the data were processed

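Polyadenylated RNA of 2 adult mouse cortex libraries was sequenced by the authors with stranded paired 101 nt reads, per the labels. The authors deposited expected counts and TPM for genes and transcripts on mm10 with GENCODE release 4, and percent isoform shares, per the file headers; the program and the credible level behind the deposited signal bounds on TPM are not given in the sources used here. The deposited mm9 gene table gives RPKM, with other values in the same column, and the deposited mm9 junction table gives counts; RPKM columns were not assigned to replicates. Totals were 91875460 and 92939474 expected counts, rounded for tests.

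Symbols and types came from GENCODE release 21 by unversioned identifier. Effective library sizes used TMM (edgeR 4.0.16, R 4.3.3). Genes with at least 10 counts were compared by an exact two-sided binomial test with Benjamini-Hochberg adjustment over 19829 genes and a threshold of 0.05. The test was checked on simulated Poisson counts, which hold its own assumption of counting error alone. That check does not cover variation between libraries. Log2 ratios added 0.5 counts, and ratio intervals are 95% Clopper-Pearson, for counting error only. Alternatives included DESeq2 1.42.0 size factors and edgeR's negative binomial test. Other steps used Python 3.11.15.

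Members and lists were chosen with earlier results of these data known. Named genes were the 10 highest and lowest by TPM, each pair, the 5 largest library ratios and mm9 differences in each direction, members with a split leading transcript, the stalk and members with a known role. Lysine and arginine shares were not run. Sequences came from the RefSeq promoter table for GRCm38.p6. Some members and list genes are not reported here by name.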

Additional observations from a re-analysis of the deposited data

How the results depend on the processing

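Of 98 alternative values, 68 stayed near the main value, 25 moved and 5 changed sign. Near means within 1 SD between libraries for levels, shares and pair ratios. It means within the semi-interquartile range for median ratios and within 1.5 times for counts. For shares and pair ratios the main value is the mean of both libraries. A single library then lies within 1 SD of it by construction, and for levels this is nearly so. Those single-library values therefore do not measure robustness. No paired analysis was possible because the series holds 1 group. By plain totals, members called higher and lower numbered 8 and 45 (21 and 27 by TMM), as all genes went from 2932 higher and 2764 lower to 2052 and 4125, and by the negative binomial test 0 and 0; DESeq2 size factors gave 18 and 31. On the TPM ratio the medians were -0.167 over members, -0.169 over the large and -0.153 over the small subunit. The ratio of large- to small-subunit level was 0.9454 by mm9 RPKM and 0.5673 by junction reads. With nuclear coding genes alone as denominator, members held 6.36% of TPM (3.429% of all gene TPM) and 1.384% of counts (1.184%). Counting coding transcripts alone, 7 members had a leading share under 60%. By mm9 RPKM the core gene was above its relative in 5 of 9 pairs; the log2 ratio was -3.1 for Rpl36a over Rpl36al, -0.54 for Rps27 over Rps27l, -4.84 for Rpl37 over Rpl37rt and -5.87 for Rps27 over Rps27rt, which was -0.73 on counts. The cause was not tested. Rpl10l, Rpl39l and Rps12l1 had too few counts to test.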
